A study of Mus musculus with 66 samples.

Results

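The genes of the myostatin, activin, follistatin and TGF-beta system were followed across growing and differentiated mouse C2C12 myoblasts. They were picked by symbol as the rows Mstn, Inhba, Tgfb1, Tgfb2, Tgfb3, Bmp4, Acvr2b, Fst, Fstl3 and Fstl1 of the mRNA-Seq table, and these 10 genes were found among its 22489. Follistatin (Fst) rose and activin βA (Inhba) fell with differentiation. Of the 3 TGF-beta ligand genes only Tgfb3 met both the p-value and the size set for a call, and that call depended on single lines. Tgfb2 was lower in 9 of 10 lines and met the p-value, but its difference was under the size set. Myostatin mRNA was almost undetected in both states.

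C2C12 is a myoblast line that stops dividing and forms myotubes when serum is withdrawn. Growing cells were kept in medium with 20% fetal bovine serum, and differentiated cells were harvested 48 h after a change to 2% horse serum. One line was WT and carried no transgene. The other 9 lines each carried a histone H3 with GFP at its N-terminus, namely H3t, H3.1 or H3.2, or H3.3, H3mm7, H3mm11, H3mm12, H3mm13 or H3mm16, under a doxycycline-inducible Tet-On promoter. These lines were made with a transposon vector, kept in doxycycline and G418, and sorted for GFP. Following the study, H3.1, H3.2 and H3t count as H3.1/H3.2-type (3 lines), and H3.3 with the 5 H3mm variants as H3.3-type (6 lines). Each line gave 1 growth library and 1 differentiated library, so the replicate here is the line (n = 10 in each state). The p-values measure the spread between lines, each seen once in each state. In the main test the growth and differentiated libraries of a line are not paired, and a fit with the line as a block is an alternative. Levels are FPKM, fragments scaled to transcript length and library size, which can be compared between genes. Differences are on the log2(FPKM + 1) scale, which understates changes of genes near or below 1 FPKM.

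Ligands of this family are secreted dimers that bring type I and type II receptor kinases together on the cell surface. The receptors phosphorylate Smad proteins, which then act on genes in the nucleus. Myostatin and the activins, which share the type II receptor encoded by Acvr2b, restrain skeletal muscle growth, and follistatin binds both and keeps them from the receptor. TGF-beta is also known to hold back myoblast differentiation.

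Depth was estimated from the FPKM worth of a single fragment in genes with 1 annotated transcript, and came to between 22800000 and 49200000 fragments per library. The 2 WT libraries stood apart. Genes above 0 FPKM in a library numbered 13858 to 16865, the lowest number in growing WT cells, where FPKM also summed to the least. How the WT reads were mapped is not given in the sources used here, and results that lean on WT are given with and without it. Of 13 skeletal muscle markers 11 rose with differentiation, and Myod1 and Myf5 were not called. Among the 11, Myh3 and Mef2c had at most 0.536 and 0.277 FPKM in growing cells. They entered the test only through the differentiated libraries, so their place among the tested genes is no support for the difference. In growing cells Des was the highest of them by median, at 165 to 497 FPKM, while Myod1 was as low as 1.61 FPKM and Myog as low as 0.106 FPKM. The summed level of 13 skeletal muscle markers was 266 to 840 FPKM in growing cells and 5567 to 27451 FPKM in differentiated cells. All 8 proliferation markers fell. Markers of other mesenchymal cells were mostly low. Alpl, Ibsp and Dlx5 of 8 osteoblast markers, Plin1, Lep and Cidec of 7 adipocyte markers, and Thy1 and Tcf21 of 6 fibroblast markers had a median of 0 FPKM. Pparg (median 21.1 FPKM in growing cells), Runx2 (9.82 FPKM) and Col3a1 (162 FPKM) led those lists. The osteoblast list summed to 8.81 to 14.9 FPKM in growing and 4.38 to 22.1 FPKM in differentiated cells, the adipocyte list to 15.3 to 35.2 and 9.06 to 19.2 FPKM, and the fibroblast list to 132 to 215 and 94.8 to 530.5 FPKM. In each of these 3 lists 2 genes were tested, and Runx2 fell with differentiation. Bglap2 (osteocalcin) and Pi16 had at most 0.685 and 0.394 FPKM in growing cells and medians of 6.67 and 1.95 FPKM in differentiated cells, and entered the test only through the latter. Of 10 endoplasmic reticulum stress genes 6 rose. Over all tested genes 8.87% rose and 8.41% fell. The part of these lists in the results below was not tested. In bulk RNA, fewer cells of a kind and less RNA per cell cannot be told apart.

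Promoter sequence was matched to RefSeq (GRCm38.p6) for 8 of the 10 genes. Fst and Tgfb3 had no entry. The 250 bases before the start are shown for Mstn, the muscle gene that stayed near 0, and for Inhba, the ligand gene that fell with differentiation. Capitals mark CANNTG, the E-box, whose letters are the same on both strands and which myogenic factors such as MyoD bind, and TATAAA, read on both strands.
Mstn, chr1:53061390-53061639, plus strand: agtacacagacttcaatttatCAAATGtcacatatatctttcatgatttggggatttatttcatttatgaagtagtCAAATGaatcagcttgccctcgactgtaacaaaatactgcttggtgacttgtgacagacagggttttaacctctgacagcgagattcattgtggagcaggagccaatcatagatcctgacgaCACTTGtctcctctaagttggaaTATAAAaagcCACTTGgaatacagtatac
Inhba, chr13:16011601-16011850, plus strand: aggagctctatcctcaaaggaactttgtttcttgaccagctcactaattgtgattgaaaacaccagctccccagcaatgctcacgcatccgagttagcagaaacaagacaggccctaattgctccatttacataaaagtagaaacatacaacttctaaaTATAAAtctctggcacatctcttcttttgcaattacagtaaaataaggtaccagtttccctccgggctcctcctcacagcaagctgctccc
The Mstn window held 4 E-boxes, beginning 229, 174, 52 and 19 bases before the start, and TATAAA beginning 29 bases before it. No E-box lay in the Inhba window, and its TATAAA began 91 bases before the start. An E-box was present in 4 of the 8 windows and in 66.2% of 32851 windows of the same length, and TATAAA in 4 of 8 and in 12.4%. None of these matches was tested for function.

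With differentiation, 2 of the 10 genes rose (Fst and Tgfb3), 1 fell (Inhba), 4 were not called and 3 had a mean under 1 FPKM and were left out of the test. A gene was called at an adjusted p below 0.05 (limma, Benjamini-Hochberg over 10954 genes) if its difference on the log2 scale was 1 or more in size. This rule called 8.87% of all tested genes higher and 8.41% lower, and the median change of all tested genes was 0.04 on the log2 scale. Over the 7 tested members the median change was -0.72. Ranges of growing and differentiated libraries overlapped for each of these 7 genes, while they did not overlap for 17.6% of tested genes. Of the genes not called, Tgfb2, Fstl3 and Fstl1 met the p-value but not the size set for a call. The levels of the single lines and the log2 changes are plotted.

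**Figure D1:**
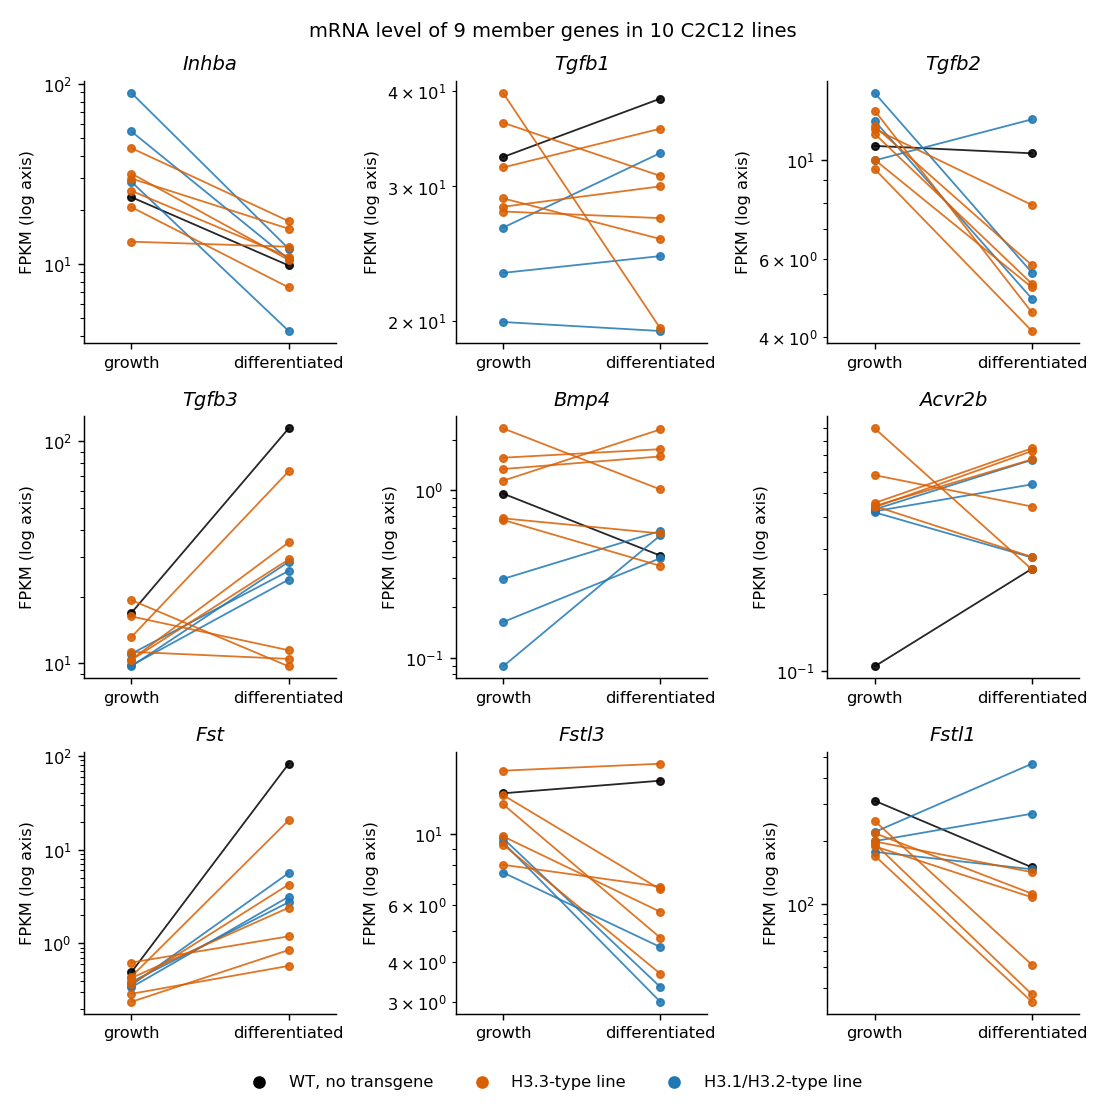
Level of 9 of the genes in growing and differentiated cells (FPKM, log axis, a separate scale for each gene); each line joins the 2 libraries of a C2C12 line, with WT in black, H3.1/H3.2-type lines in blue and H3.3-type lines in orange. Inhba was lower and Fst higher after differentiation in all 10 lines; Mstn, at 0 in 13 of 20 libraries, is not drawn.

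**Figure D2:**
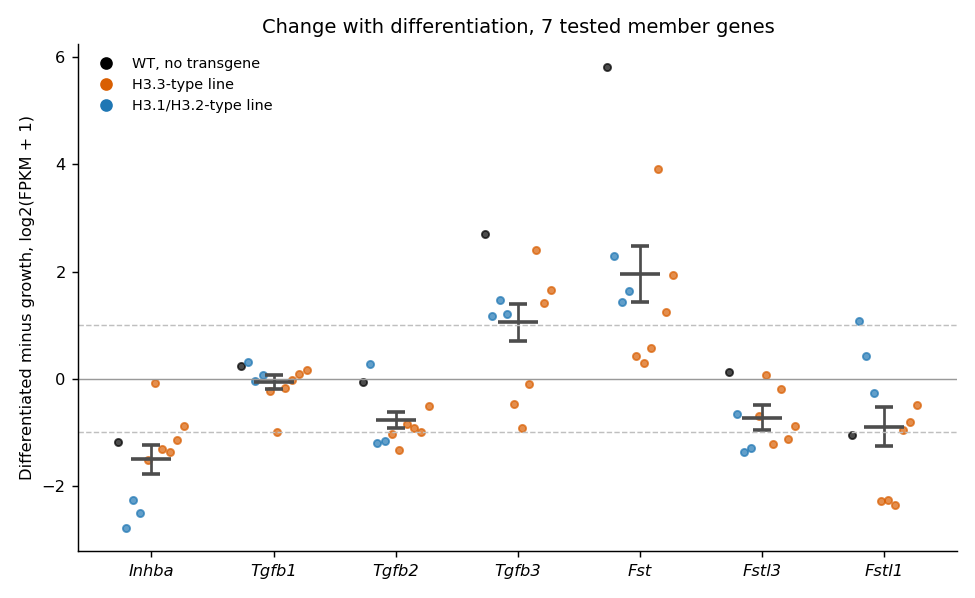
Differentiated minus growth level of the 7 tested genes on the log2(FPKM + 1) scale; points are the 10 lines, bars the mean with its SE from limma, and dashed lines mark a difference of 1 in either direction. Only Inhba, Tgfb3 and Fst have means past the dashed lines, and the 10 lines spread most for Fst.

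Fstl1 had the highest level of the 10 genes in both states. By their medians in growing cells, the order was Fstl1 (199 FPKM), Inhba (29.3), Tgfb1 (28.6), Tgfb2 (11.6), Tgfb3 (11.2), Fstl3 (9.75), Bmp4 (0.819), Acvr2b (0.441), Fst (0.378) and Mstn (0). Neighbours in that order overlapped in range except at 4 steps, from Fstl1 to Inhba, from Tgfb1 to Tgfb2, from Fstl3 to Bmp4 and from Fst to Mstn. In differentiated cells the order of medians was Fstl1 (127 FPKM), Tgfb1 (28.6), Tgfb3 (27.4), Inhba (10.8), Tgfb2 (5.43), Fstl3 (5.24), Fst (2.95), Bmp4 (0.563), Acvr2b (0.490) and Mstn (0). There every pair of neighbours overlapped except Acvr2b and Mstn.

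Among the ligands, Mstn (chr1:53118507-53124923, mm9, protein coding) encodes myostatin, the inhibitor of muscle growth whose loss enlarges muscle. It was listed at 0 FPKM in 13 of 20 libraries. The 7 others had 0.0113 to 0.0200 FPKM in growing cells of the H3.3, H3mm7 and H3mm12 lines, and 0.0084 to 0.0286 FPKM in differentiated cells of the H3.3, H3mm7, H3mm12 and H3mm13 lines. At the estimated depth, these levels are about 1.0 to 2.6 fragments per library. The libraries with a value lay in both states and 3 of the lines had one in each, so no difference was detectable at this depth. Without the filter on low values, the difference between states was 0.00 with an SE of 0.01 on the log2 scale (limma, adjusted p = 0.711).

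Inhba (chr13:16103684-16119044) encodes the βA subunit, of which activin A is the homodimer. Its level was 13.3 FPKM (lowest, H3mm7), 29.3 FPKM (median) and 89.5 FPKM (highest, H3.1) in growing cells. In differentiated cells it was 4.25 FPKM (H3.2), 10.8 FPKM and 17.3 FPKM (H3mm11). It was lower after differentiation in 10 of 10 lines, and only the growing H3mm7 library lay within the range of the differentiated ones. Inhba fell by 1.50 on the log2 scale (SE 0.27, limma adjusted p = 5.99e-05), and without WT it fell by 1.54. The change differed among lines, from 7.34 times lower in H3.1 and 6.75 times lower in H3.2 to 1.07 times lower in H3mm7. The H3mm7 line began with the lowest growth level of all lines.

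Of the TGF-beta ligand genes, Tgfb1 (chr7:26472021-26490096), the ligand best known from fibrosis and immune control, had 20.0 FPKM (H3t), 28.6 FPKM and 39.7 FPKM (H3mm7) in growing cells and 19.4 FPKM (H3t), 28.6 FPKM and 39.1 FPKM (WT) in differentiated cells. The difference was -0.06 (SE 0.13, adjusted p = 0.741), with 5 lines higher and 5 lower, and became 0.05 without H3mm7. H3mm7 was the line that moved most, from the highest growth level to 19.6 FPKM.

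Tgfb2 (chr1:188447065-188529871, minus strand), known from heart, eye and skeletal development, lay in a narrow band in growing cells, with 9.54 FPKM (H3.3), 11.6 FPKM and 14.1 FPKM (H3t). Differentiated cells had 4.13 FPKM (H3.3), 5.43 FPKM and 12.3 FPKM (H3.1). In 8 of the differentiated libraries it was below every growing library, and the exceptions were H3.1 and WT (10.3 FPKM). The difference was -0.78 (SE 0.15, adjusted p = 0.000134), lower in 9 of 10 lines, which is under the size set for a call.

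Tgfb3 (chr12:87397694-87419991, minus strand), known from palate and lung development, had 9.71 FPKM (H3t), 11.2 FPKM and 19.3 FPKM (H3mm7) in growing cells. After differentiation it had 9.69 FPKM (H3mm7), 27.4 FPKM and 114 FPKM (WT). In WT the level was 6.78 times that of growing cells and in H3mm12 5.58 times, while in H3.3, H3mm7 and H3mm11 it was 0.704, 0.503 and 0.929 times. Tgfb3 rose by 1.05 (SE 0.35, adjusted p = 0.0128), higher in 7 of 10 lines. The call was lost without WT (0.87, adjusted p = 0.0154), without H3mm12 (0.90, 0.0343) or without H3mm16 (0.98, 0.0356), because the difference then fell under 1.

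The shares of the 3 TGF-beta ligand mRNAs were set side by side. Tgfb3 made up 19.3% (H3mm16) to 28.0% (WT) of their summed FPKM in growing cells, with a median of 22.8%. In differentiated cells it made up 24.6% (H3.3) to 69.9% (WT), with a median of 44.8%. The share of Tgfb1 had a median of 55.5% in growing and 46.1% in differentiated cells, and that of Tgfb2 21.4% and 9.64%. Ranges of the Tgfb3 share overlapped between states, and in H3.3 (26.2% and 24.6%), H3mm7 (26.8% and 28.7%) and H3mm11 (22.4% and 25.4%) it moved little. After differentiation Tgfb3 had the largest share in WT, H3t and H3mm12, and Tgfb1 in the other 7 lines. These shares are descriptions from 1 library per line and state, and were not tested.

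**Figure D3:**
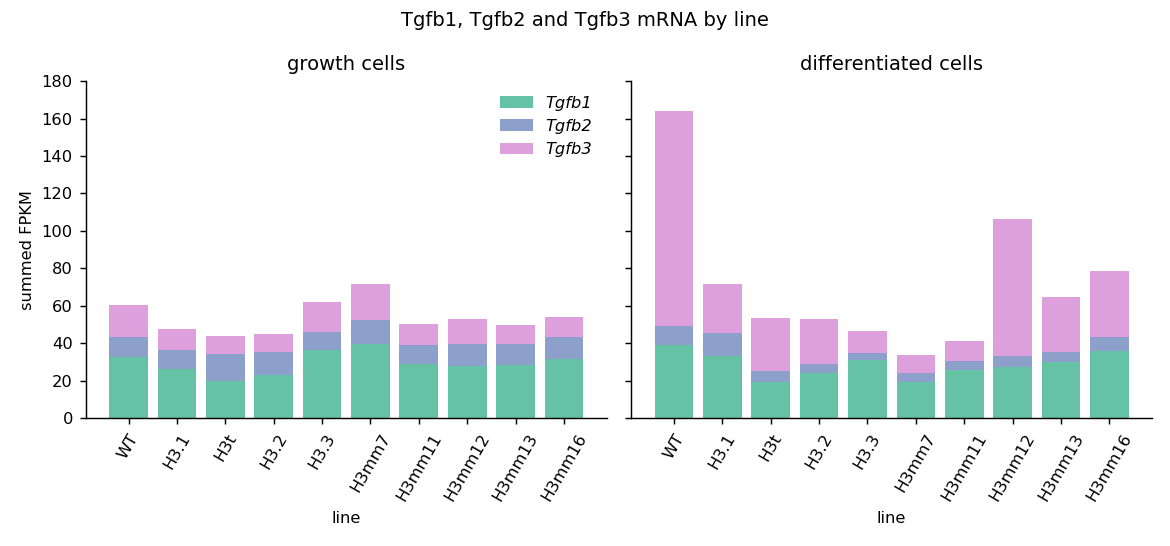
FPKM of Tgfb1, Tgfb2 and Tgfb3 stacked for each of the 10 lines in growing cells (left) and differentiated cells (right), 1 library per bar. The sum runs from 43.8 to 71.9 FPKM in growing cells and from 33.8 (H3mm7) to 163.9 FPKM (WT) in differentiated cells, where the Tgfb3 segment is largest in WT and H3mm12.

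Bmp4 (chr14:47003195-47010344, minus strand), a bone morphogenetic protein that favours bone formation over muscle formation in culture, was low. It had 0.0889 FPKM (H3.1), 0.819 FPKM and 2.35 FPKM (H3mm7) in growing cells and 0.354 FPKM (H3mm12), 0.563 FPKM and 2.31 FPKM (H3mm16) in differentiated cells. Its mean over 20 libraries was 0.938 FPKM, just under the 1 FPKM needed to enter the test. Of the 10 lines, 6 were higher and 4 lower after differentiation. The difference without the filter was 0.03 (SE 0.21, adjusted p = 0.926).

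Acvr2b (chr9:119311562-119342619), the type II receptor for myostatin and activins, was present at low levels in both states. Growing cells had 0.104 FPKM (WT), 0.441 FPKM and 0.894 FPKM (H3mm7), and differentiated cells 0.250 FPKM (H3mm7), 0.490 FPKM and 0.746 FPKM (H3mm11). The 8 growing libraries other than WT and H3mm7 lay between 0.418 and 0.586 FPKM. The difference between states without the filter was 0.02 (SE 0.09, adjusted p = 0.878). Acvr2a, which encodes the other activin type II receptor and is not one of the 10 genes, was higher, at 4.54 FPKM (median) in growing and 11.5 FPKM in differentiated cells, and rose by 1.03 (SE 0.19, adjusted p = 9.05e-05) in 10 of 10 lines.

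With WT included, follistatin showed the widest change of the tested members and the widest spread after differentiation. Without WT, Fst changed by 1.53 and Inhba by -1.54 on the log2 scale. Fst (chr13:115242470-115249159, minus strand) encodes the secreted protein that binds and neutralizes activin and myostatin. Growing cells had 0.237 FPKM (H3mm11), 0.378 FPKM and 0.624 FPKM (H3.3), and differentiated cells 0.575 FPKM (H3mm7), 2.95 FPKM and 82.9 FPKM (WT). Every line was higher after differentiation. The only differentiated library inside the growth range was H3mm7. Fst rose by 1.96 (SE 0.52, adjusted p = 0.00290), and by 1.53 (SE 0.35, adjusted p = 0.000916) without WT. With a pseudocount of 0.1 FPKM in place of 1 FPKM the difference was 3.0 (adjusted p = 0.000335), and with 0.01 FPKM it was 3.24 (adjusted p = 0.000212). The gene entered the test through its differentiated libraries alone, since no growing library reached 1 FPKM, so its place among the tested genes is no support for the difference. On the linear scale the ratio of differentiated to growing cells ran from 1.90 in H3.3 and 1.99 in H3mm7 through 46.8 in H3mm12 to 168 in WT. The SD between lines on the log2 scale was 0.11 in growing and 1.76 in differentiated cells.

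Set against Inhba in the same library, Fst mRNA was 0.0040 (H3.1) to 0.0217 (H3mm7) of the Inhba level in growing cells. In differentiated cells the ratio of Fst to Inhba FPKM was 0.0459 (H3mm7), 0.264 (median) and 8.43 (WT). Only differentiated WT and H3mm12 (2.78) had more Fst than Inhba mRNA. The ranges of the ratio in the 2 states did not overlap. Fst and Inhba had already been called in opposite directions in these same libraries, so this adds no support to those calls. The ratio is a description and was not tested.

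Fstl3 (chr10:79240017-79245375) encodes the relative of follistatin that also binds activin and myostatin. Its level was 7.58 FPKM (H3.1), 9.75 FPKM and 15.7 FPKM (H3mm7) in growing cells and 3.01 FPKM (H3t), 5.24 FPKM and 16.5 FPKM (H3mm7) in differentiated cells. It was above Fst in every growing library, and in differentiated cells Fst was above it in WT, H3.1 and H3mm12. The difference was -0.72 (SE 0.24, adjusted p = 0.0121), lower in 8 of 10 lines and not called. WT and H3mm7 were the 2 lines with a level as high after differentiation as before, at 14.6 and 16.5 FPKM.

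Fstl1 (chr16:37776959-37836600) encodes a secreted glycoprotein with a follistatin-like domain that is made by muscle and mesenchymal cells. Growing cells had 170 FPKM (H3.3), 199 FPKM and 311 FPKM (WT). In differentiated cells it had 34.2 FPKM (H3.3), 127 FPKM and 466 FPKM (H3.1), and the highest level was 13.6 times the lowest, against 1.83 times in growing cells. The difference was -0.89 (SE 0.36, adjusted p = 0.0383), lower in 8 of 10 lines and not called. It was called without H3.1 (-1.11, adjusted p = 0.00642) and without H3t (-1.04, 0.0231), the 2 lines in which Fstl1 was higher after differentiation.

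The GFP-H3 lines were next compared by type, H3.3-type (6 lines) against H3.1/H3.2-type (3 lines), without WT. In growing cells none of the members was called, and 0.21% of all tested genes were (23 genes, limma; 1029 genes at an unadjusted p below 0.05). One of the 7 tested members, Tgfb1, had ranges that did not overlap, as did 9.94% of all tested genes. Tgfb1 was 27.8 to 39.7 FPKM in H3.3-type and 20.0 to 26.5 FPKM in H3.1/H3.2-type lines, a difference of 0.45 (SE 0.18, adjusted p = 0.417). Bmp4 and Acvr2b, which were under the filter, also did not overlap. Growing H3.3-type lines had 0.666 to 2.35 FPKM of Bmp4 and H3.1/H3.2-type lines 0.0889 to 0.296 FPKM, with a difference of 0.91 without the filter (SE 0.26, adjusted p = 0.236). For Acvr2b the ranges were 0.438 to 0.894 and 0.418 to 0.430 FPKM (difference 0.11, SE 0.13, adjusted p = 0.908). For Inhba the ranges overlapped, 13.3 to 44.2 FPKM in H3.3-type and 28.7 to 89.5 FPKM in H3.1/H3.2-type lines (difference -0.98, SE 0.38, adjusted p = 0.389).

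In differentiated cells 1 member, Fstl1, was lower in H3.3-type lines, and 0.749% of all tested genes were called (82 genes). Its level was 34.2, 37.1, 51.4, 108, 112 and 142 FPKM in the H3.3, H3mm11, H3mm7, H3mm13, H3mm12 and H3mm16 lines, and 147, 269 and 466 FPKM in the H3.2, H3t and H3.1 lines. These ranges did not overlap, though the nearest pair, H3mm16 and H3.2, lay close together, and ranges did not overlap for 6.07% of all tested genes. WT, with 150 FPKM, lay at the lower end of the H3.1/H3.2-type lines. The difference was -1.91 (SE 0.40, limma adjusted p = 0.0271). Of the 8 proliferation markers, 3 were also called lower in H3.3-type lines in this comparison, namely Mki67 (-1.27), Tk1 (-1.75) and Top2a (-1.73), and H3.1, the line highest for Fstl1, was highest for all 3. Birc5 (-1.62), Mcm5 (-1.44), Pttg1 (-1.42) and Ccnb1 (-1.29) were lower too but not called (limma adjusted p = 0.0602 to 0.0939). Pcna differed by -0.09 (adjusted p = 0.812). The summed level of the 8 markers was 89.5 to 155 FPKM in H3.3-type and 104 to 240.0 FPKM in H3.1/H3.2-type lines. Pcna alone had 81.5 to 109 and 77.3 to 122 FPKM in these types. The part of the 8 markers in the Fstl1 difference was not tested. The Fstl1 difference kept its direction without any one line but was no longer called without H3.1 (-1.50, adjusted p = 0.137), H3t (-1.90, 0.130), H3.3 (-1.71, 0.0531) or H3mm11 (-1.73, 0.0629). The type difference in Fstl1 itself did not pass a test of its change between states (interaction -1.93, SE 0.57, adjusted p = 0.367). For the interaction, 0% of genes were called by limma (1002 genes at an unadjusted p below 0.05). With the line as a block, which takes the pairing of libraries into account, 55 genes were called, none of them among the 10. The Fstl1 interaction then had an SE of 0.47 and an adjusted p of 0.0643 (limma). The largest other interaction was that of Inhba, 1.46 (SE 0.53, adjusted p = 0.456, and SE 0.39, adjusted p = 0.0810 with the block).

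**Figure D4:**
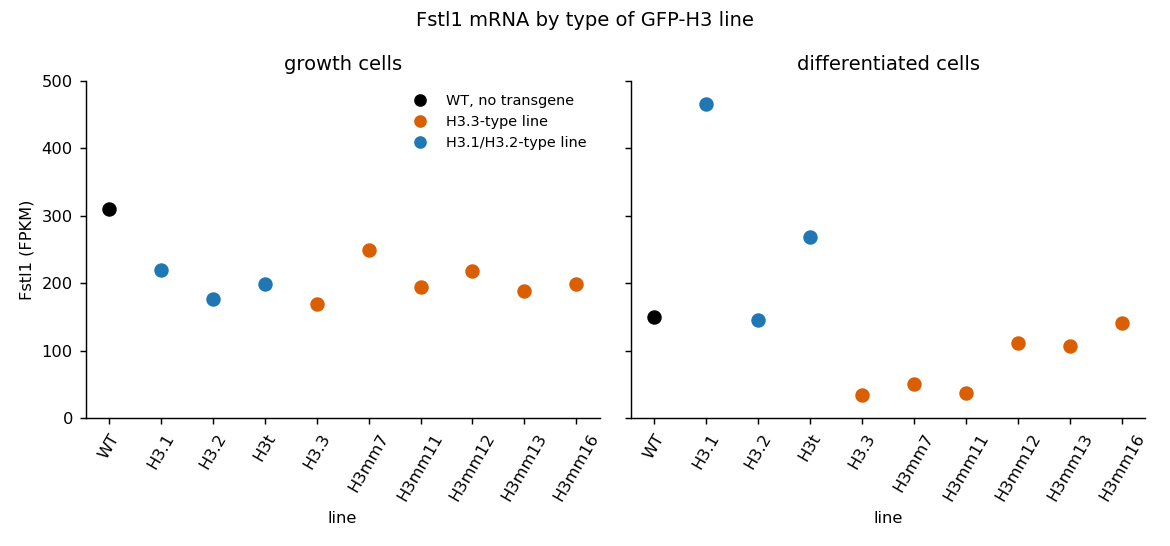
Fstl1 level (FPKM) of each line in growing (left) and differentiated cells (right), 1 library per point, with WT in black, H3.1/H3.2-type lines in blue and H3.3-type lines in orange. Growing GFP-H3 lines lie between 170 and 249 FPKM, and differentiated H3.3-type lines lie at or below 142 FPKM, under the H3.1/H3.2-type lines (147 to 466 FPKM).

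The H3.3, H3mm7 and H3mm11 lines stood lowest for several members after differentiation. The study set these 3 lines apart by the expression profiles of the same libraries, along an axis that it linked to endoplasmic reticulum stress genes. Values of these lines are therefore a description and were not tested. High stress genes in them restate how the lines were set apart. Tgfb3 was 9.69 to 11.5 FPKM in them and 23.9 to 114 FPKM in the other 7 differentiated libraries. Fst was 0.575 to 1.19 FPKM against 2.40 to 82.9 FPKM. Fstl1 was 34.2 to 51.4 FPKM against 108 to 466 FPKM. Inhba, Tgfb1, Tgfb2 and Fstl3 overlapped between these lines and the rest, so 3 of the 7 tested members separated them, where 16.8% of all tested genes did. In growing cells all 7 overlapped. Acvr2b, which was under the filter, did not overlap there (0.455 to 0.894 FPKM against 0.104 to 0.443 FPKM). Of 13 skeletal muscle markers, 10 overlapped between these lines and the other differentiated libraries and 3 were lower in these lines without overlap (Myod1, Actc1 and Myh3). In growing cells 4 of the 13 (Acta1, Actc1, Myh3 and Ckm) were higher in these lines without overlap. Their highest growth levels in these lines were 111, 6.85, 0.536 and 1.36 FPKM in that order, so Myh3 and Ckm were low. The share of all tested genes was not counted in growing cells, so the count of 4 of 13 has nothing to be set against. Whether it reflects more than the spread between lines was not tested. Of 10 endoplasmic reticulum stress genes, 5 were higher in these lines without overlap after differentiation (Hspa5, Hsp90b1, Trib3, Calr and Pdia4) and 5 overlapped, and in growing cells all 10 overlapped. Hspa5, a chaperone raised by unfolded protein, was at 2330 to 3688 FPKM against 205 to 1687 FPKM, and Myh3, the embryonic myosin heavy chain, at 54.9 to 78.0 FPKM against 95.6 to 1060 FPKM. The part of these lists in the levels of Fst, Tgfb3 and Fstl1 was not tested.

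Fst and Tgfb3 had a like order over the differentiated lines, with Pearson r of 0.95 and Spearman rho of 0.85 on the log2 scale (n = 10 lines), and r of 0.92 without H3mm7 and WT, the lines farthest from the median of Tgfb3. The points formed groups, however. Among the 7 lines other than H3.3, H3mm7 and H3mm11, r was 0.96 and rho 0.57, and r was 0.02 without H3mm12 and WT, so the relation within them rested on these 2 libraries. In growing cells r was 0.31 and rho 0.16. All points come from the same cell background, with 1 library each.

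**Figure D5:**
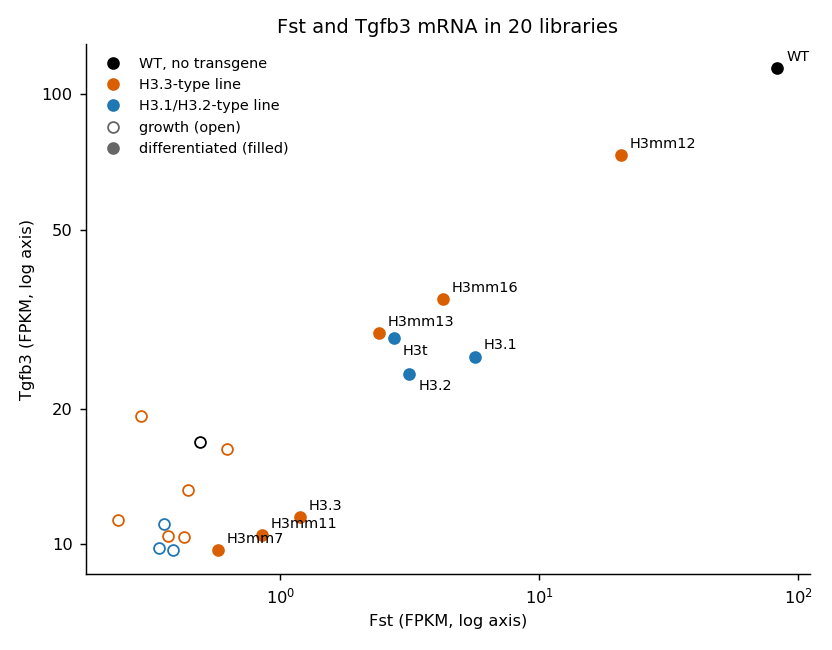
Tgfb3 against Fst in 20 libraries (FPKM, both axes log), open circles for growing and filled circles with line names for differentiated cells, with WT in black, H3.1/H3.2-type lines in blue and H3.3-type lines in orange. Differentiated cells fall into 3 lines at 9.69 to 11.5 FPKM of Tgfb3, 5 lines at 23.9 to 35.1 FPKM, and H3mm12 and WT above them.

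WT cells, with 1 library per state and no test, lay outside the 9 GFP-H3 lines for 1 of the 7 tested members in growing cells (Fstl1) and 3 in differentiated cells (Fst, Tgfb3 and Tgfb1). It lay outside them for 48.4% of all tested genes in growing and 40% in differentiated cells. After differentiation WT had 82.9 FPKM of Fst where GFP-H3 lines had 0.575 to 20.7 FPKM, and 114 FPKM of Tgfb3 where they had 9.69 to 73.4 FPKM. Tgfb1 was 39.1 FPKM against 19.4 to 35.7 FPKM. In growing cells, WT was above the lines for Fstl1 (311 FPKM against 170 to 249 FPKM) and below them for Acvr2b (0.104 FPKM against 0.418 to 0.894 FPKM). For Inhba, Tgfb2, Fstl3 and Bmp4 it lay within their range in both states. The transgene, the selection and the unstated mapping of WT reads cannot be told apart here.

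Over all 20 libraries, the genes most like each member were named by Pearson r on the log2 scale, a description in which both states and all lines take part. Fst was nearest to Rhobtb2 (r = 0.98), Mylk4 (0.96) and Usp28 (0.96), and genes near to Tgfb3 were Prosapip1 (0.95) and Synpo2 (0.94). Nearest to Fstl1 were Arsb (0.95), Plau, the urokinase plasminogen activator (0.93), and S100a4 (0.93). For Inhba they were Zbtb38 (0.89), Nin (0.88) and Pkp2 (0.88). Tgfb2 was most like Erf (0.92), Cenpp (0.90) and Col8a1 (0.90), and Fstl3 most like Gadd45gip1 (0.90), Bud13 (0.88) and Abcb6 (0.87). The closest genes to Tgfb1 were Zbtb7a (0.84), Nr1d1 (0.82) and Spg7 (0.79).

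The rest of the pathway was read from 5 lists holding 73 further genes, of which 45 were tested. With differentiation 5 rose, 12 fell and 28 were not called (median change -0.15), while 8.87% of all tested genes were called higher and 8.41% lower. Of these 45 genes 0 were called between line types in either state or in the interaction. Of 16 other ligand genes only 3 (Gdf11, Gdf15 and Inhbb) were tested, and none was called. Gdf15, a stress-induced member of the superfamily, had 43.3 to 210 FPKM in growing and 12.5 (WT) to 460 FPKM (H3mm7) in differentiated cells. Of 13 other receptor genes 7 were tested and 2 rose. Beside Acvr2a this was Tgfbr2, the type II receptor for TGF-beta, by 1.14 (SE 0.17, adjusted p = 5.67e-06), from a median of 19.6 FPKM to 49.5 FPKM. Ranges of Tgfbr2 in the 2 states lay close but did not overlap (11.4 to 23.0 and 24.5 to 66.4 FPKM), as was so for 17.6% of tested genes.

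All 8 Smad genes were tested, and 3 fell. Smad6 fell by 1.88, Smad9 fell by 1.50 and Smad7 fell by 1.17 on the log2 scale. Smad6 and Smad7 encode the inhibitory Smads, and Smad9 one of the Smads used by BMP receptors, which entered the test through its growing libraries alone (at most 0.575 FPKM in differentiated cells). Smad7 had medians of 14.3 FPKM in growing and 6.29 FPKM in differentiated cells.

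Of 22 other secreted binders and proteases 14 were tested, and 2 rose and 4 fell. Dcn, the proteoglycan decorin that binds TGF-beta, rose by 4.50 (SE 0.41, adjusted p = 7.96e-09), from a median of 1.65 FPKM to 58.0 FPKM. Chrd, the BMP antagonist chordin, rose by 2.04, from a median of 0.767 FPKM (at most 1.65 FPKM) to 7.17 FPKM. Its growth median was under the 1 FPKM of the filter, so its place among the tested genes is no support for the difference. Ltbp2 fell by 2.00. Grem1, the BMP antagonist gremlin, fell by 1.45, and Ltbp1, which holds latent TGF-beta in the matrix, fell by 1.41. Nog (noggin) also fell.

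Of 14 targets and co-repressors 13 were tested, and 1 rose and 5 fell. Id2 fell by 3.81 and Id3 fell by 3.46 on the log2 scale, and Id1 and Ctgf were also among those that fell. Id1, Id2 and Id3 encode inhibitors of myogenic E-box factors and answer to BMP, and Ctgf is a standard TGF-beta target. Id2 had 62.7 to 162 FPKM in growing and 2.94 to 12.2 FPKM in differentiated cells. Tgif1, a Smad co-repressor, rose by 1.02 with 31.8 to 44.0 FPKM in growing and 61.0 to 84.8 FPKM in differentiated cells. Each of the 17 called genes moved the same way in 10 of 10 lines. The calls were made from these same lines, so this describes the calls and adds no support to them. The proliferation markers fell over the same comparison, and their part in these changes was not tested.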

How the data were processed

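The mRNA-Seq libraries of growing and differentiated C2C12 cells were used (10 lines, 20 libraries). Per the labels and the study's methods, the authors mapped the reads of GFP-H3 lines to mm9 with TopHat2 2.0.8 and deposited FPKM values estimated by Cuffdiff of Cufflinks 2.0.1. Columns named H3mmT were taken as H3t. FPKM holds no counts. The estimate of depth is approximate, and no counting interval is given. Gene positions are from GENCODE M1 on mm9, and promoters from RefSeq.

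Genes with a mean of at least 1 FPKM over 20 libraries (10954 of 22489) were tested on log2(FPKM + 1) with limma 3.58.1 (trend and robust settings) in R 4.3.3, for differentiated (10) against growing (10) libraries, and for line types in each state and as an interaction (18 libraries). Calls needed an adjusted p (Benjamini-Hochberg) below 0.05 with a log2 difference of 1 or more in size. The 2 libraries of a line deviated together from their state means (r = 0.27 to 0.88), and each matched its own line best in 10 of 10 lines, so lines pair the libraries. The line as a block was an alternative.

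Named genes are the 10 members, called genes of the pathway lists (values for the 3 largest changes in each direction of a list), the 3 genes most like each member, and from the marker lists the leading gene and those at 0. Genes of the muscle, stress and proliferation lists, Bglap2, Pi16, Gdf15 and the other tested ligands were named after their values were seen. Some genes that the rule names are not reported here. The members and lists were chosen with earlier results of these data known. Alternatives covered pseudocounts of 0.1 and 0.01 FPKM, no filter, a mean of at least 5 FPKM, median-of-ratios scaling, quantile normalization, limma without trend and robust settings, the block, and leaving out each line. Other values were computed in Python 3.11.15 (pandas 2.3.3, numpy 2.4.6, scipy 1.17.1) and drawn with matplotlib 3.10.9. ChIP-seq, 3′-seq and amplicon sequencing were not used here.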

Additional observations from a re-analysis of the deposited data

How the results depend on the processing

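Inhba, Fst, Tgfb2 and Fstl3 kept their direction and their side of the threshold for differentiation under every alternative tried. With the line as a replicate block, no call of a member changed in any comparison, with 979 genes higher and 931 lower with differentiation. Leaving out each line in turn moved the Tgfb3 difference between 0.87 and 1.27, Fstl1 between -1.11 and -0.73, and Tgfb1 between -0.098 and 0.047. The number of members called by type in differentiated cells then ran from 0 to 1. Type differences that changed sign without a line were those of Tgfb2 (-0.21 to 0.018), Fstl1 (-0.057 to 0.10) and Fst (-0.011 to 0.067) in growing cells, Tgfb2 (-0.56 to 0.034) and Tgfb1 (-0.034 to 0.34) in differentiated cells, and the Tgfb2 interaction (-0.49 to 0.25). Quantile normalization gave -0.20 for Fst by type in growing cells. None of these was called, and the cause was not tested.

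Over all genes, type calls moved more than those for differentiation. Against 23 genes in growing cells there were 2 (without H3.1) to 70 (pseudocount of 0.01 FPKM), against 82 in differentiated cells 3 (without H3.1) to 295 (without H3.2), and against 0 for the interaction up to 5 with quantile normalization and 55 with the block. Genes of low FPKM, such as Mstn, Acvr2b and Bmp4, are limited by depth.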
